A study of Mus musculus with 10 samples.

Results

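The transcripts described here are those of 10 genes of calcium channels, calcium pumps and store sensors in the endoplasmic reticulum and plasma membrane. They are Itpr1, Itpr2, Itpr3, Orai1, Stim1, Stim2, Atp2a2, Atp2b1, Atp2b4 and Trpv4, chosen by gene symbol out of the 55414 genes in the table. RNA-seq was carried out on 10 samples of mpkCCD cells, a mouse cell line (C57BL/6 background) derived from principal cells of the cortical collecting duct. All samples were grown on membrane supports for 7 days with dDAVP at 0.1 nM, an agonist of the vasopressin V2 receptor, so no sample without dDAVP enters any comparison. The 5 Camk2d-intact samples were the parental wild-type line and 2 samples each of intact clone 1 and intact clone 2, which went through the transfection but carry no Camk2d mutation, and thus represent 3 cell lines. The 5 Camk2d KO samples were 5 single-cell-derived clones made by CRISPR-Cas9 deletion of the calmodulin-dependent kinase gene Camk2d. The guide was directed at exon 8 for KO 1 and KO 2 and at exon 9 for KO 3, KO 4 and KO 5, if the clone numbers of the supplement are those of the sample labels, which do not give the guide. Each KO clone is a single sample, and nothing in the labels says whether the paired samples of an intact clone were separate cultures, so the p-values measure the spread between these samples, part of which may be technical.

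In the collecting duct principal cell, vasopressin acts through cAMP and protein kinase A and is accompanied by calcium spikes that can activate calmodulin-dependent kinases. Calcium leaves the endoplasmic reticulum through inositol trisphosphate (IP3) receptors, the STIM proteins sense the emptied store and open ORAI channels in the plasma membrane, the SERCA pump refills the store, and the PMCA pumps move calcium out of the cell. TRPV4 is a calcium-permeable cation channel of the plasma membrane that responds to osmotic and mechanical stimuli. The comparisons ask whether the transcripts of this machinery differ in cells without the kinase, and how much they differ between cell lines of the same genotype.

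Values are in TPM, the transcript abundance unit that scales each gene's reads by its length and sums to the same total in every sample, so that levels of different genes within a sample can be set beside each other. Sequencing depth is not kept in TPM and is unknown. Camk2d was at 122.68 to 141.28 TPM in intact samples and at 19.76 to 29.76 TPM in KO samples, and the groups did not overlap (log2 ratio -2.39, limma adjusted p = 1.2e-06). Of 12 marker genes of principal cells, 9 had a mean of at least 1 TPM, whereas Scnn1b, Elf5 and Kcnj1 were near 0. Their summed level was 5082 to 7066 TPM in intact and 2462 to 5305 TPM in KO samples, most of it Aqp2, the vasopressin-regulated water channel, at 4318 ± 696 TPM in intact and 2485 ± 1024 TPM in KO samples (SD, n = 5 each). The log2 ratio of Aqp2 was -0.89 with a limma adjusted p of 0.565. In a two-sided exact permutation test of Aqp2 alone p was 0.0159, and 4 of 5 KO clones were below every intact sample. Of the 9 expressed genes of the list, 5 had a lower mean in KO samples (Aqp2, Aqp4, Avpr2, Scnn1g and Fxyd4) and 4 a higher mean (Gata3, Scnn1a, Hsd11b2 and Aqp3). Fewer principal-like cells and less of these RNAs per cell cannot be told apart in bulk RNA, and the part of this marker difference in the results was not tested. Markers of thick ascending limb and distal tubule, fibroblasts and endothelial cells were at or near 0 (0 of 3, 0 of 4 and 0 of 3 genes at 1 TPM or more). The intercalated-cell markers reached that level in 3 of 7 genes, with sums of 28.3 to 36.1 TPM in intact and 28.6 to 59.2 TPM in KO samples. Proximal tubule markers did so in 1 of 5 genes (Lrp2, list sums 7.54 to 12.98 and 6.53 to 15.1 TPM) and immune markers in 1 of 3 (Cd68, list sums 4.24 to 5.72 and 3.64 to 9.38 TPM). The part of these lists in the results was not tested.

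Transcript levels of the 10 genes spanned from 0 to 435.60 TPM. Trpv4 was the most abundant in every sample, at 379 ± 29.7 TPM (SD, n = 10), 2.86 times the mean of the next gene. Atp2b1, which encodes the plasma membrane calcium pump PMCA1, was at 132 ± 14.9 TPM, and Atp2a2, which encodes the store pump SERCA2, was at 111 ± 12.2 TPM. Their ranges overlapped, with Atp2b1 above Atp2a2 in 9 of 10 samples. Itpr2, Stim2 and Orai1 followed with means of 41.8, 41.3 and 38.4 TPM and formed a set whose ranges overlapped, as Itpr2 was above Stim2 in only 2 of 10 samples despite its higher mean. Itpr3 at 20.1 TPM lay below the range of Orai1, but its range met that of Itpr1 at 14.3 TPM, although Itpr3 was higher than Itpr1 within each of the 10 samples. Stim1 was at 10.5 ± 1.12 TPM. Atp2b4, which encodes PMCA4, was at 0.01 TPM in the parental sample and listed at 0 in the other 9 samples.

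**Figure D1:**
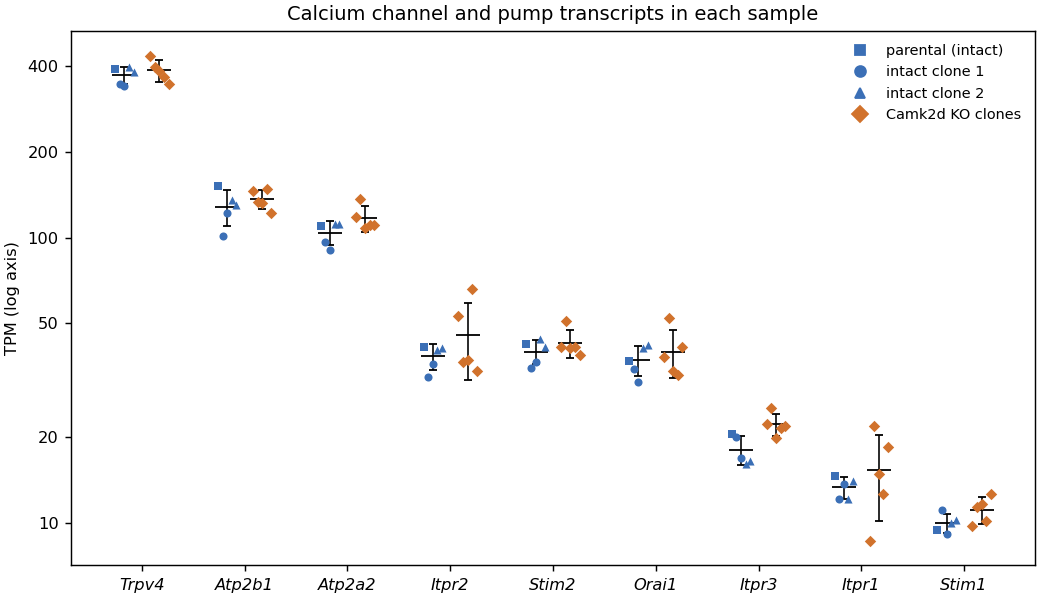
TPM of 9 of the 10 genes in each sample (log axis), with intact samples in blue (square, parental; circles, intact clone 1; triangles, intact clone 2), KO clones in orange, and black bars for the mean ± SD of 5 samples. Trpv4 lies above 339 TPM throughout, and the orange and blue points overlap for every gene; Atp2b4 is left out because it is listed at 0 in 9 samples.

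Promoter sequences are shown for 4 genes, the most abundant of them (Trpv4), the IP3 receptor with the lowest p-value between KO and intact samples (Itpr3), and the expressed and the unexpressed plasma membrane pump (Atp2b1 and Atp2b4). Each is the 250 bases before an annotated start in RefSeq (GRCm38.p6), read 5′ to 3′ on the gene's strand with CG dinucleotides in capitals. The Trpv4 window is chr5:114658422-114658671 on the minus strand, that of Itpr3 chr17:27057054-27057303 on the plus strand, the first of the 2 windows of Atp2b1 chr10:98914392-98914641 on the plus strand and that of Atp2b4 chr1:133753748-133753997 on the minus strand.
Trpv4: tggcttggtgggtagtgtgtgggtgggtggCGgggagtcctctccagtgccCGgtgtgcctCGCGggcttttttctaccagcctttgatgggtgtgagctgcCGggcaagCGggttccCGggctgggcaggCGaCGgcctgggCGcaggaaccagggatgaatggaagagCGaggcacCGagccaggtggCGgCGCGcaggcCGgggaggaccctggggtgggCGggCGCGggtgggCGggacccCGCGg
Itpr3: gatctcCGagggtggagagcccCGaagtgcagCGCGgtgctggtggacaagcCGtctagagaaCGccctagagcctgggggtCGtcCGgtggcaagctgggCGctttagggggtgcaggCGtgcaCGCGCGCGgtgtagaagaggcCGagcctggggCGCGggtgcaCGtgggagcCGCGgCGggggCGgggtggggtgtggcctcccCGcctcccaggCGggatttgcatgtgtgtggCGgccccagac
Atp2b1: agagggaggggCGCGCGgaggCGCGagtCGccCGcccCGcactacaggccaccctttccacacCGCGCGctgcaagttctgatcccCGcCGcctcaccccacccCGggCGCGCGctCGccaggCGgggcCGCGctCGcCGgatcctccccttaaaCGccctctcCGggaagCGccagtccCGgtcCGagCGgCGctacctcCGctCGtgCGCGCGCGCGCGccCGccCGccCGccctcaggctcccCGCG
Atp2b4: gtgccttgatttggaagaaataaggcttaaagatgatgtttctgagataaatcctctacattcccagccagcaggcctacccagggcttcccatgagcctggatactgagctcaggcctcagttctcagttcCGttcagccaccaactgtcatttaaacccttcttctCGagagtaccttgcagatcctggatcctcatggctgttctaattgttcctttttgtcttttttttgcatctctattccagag
The Atp2b1 window holds 43 CG dinucleotides, more than 99.3% of 32851 RefSeq promoter windows of this length, and Atp2b4 holds 2, more than 18.8% of them. Trpv4 holds 22 and Itpr3 holds 25, against a median of 6 over all windows. The Atp2b4 start used here lies inside the gene as GENCODE M21 draws it (chr1:133699457-133801041), so the window does not cover its outermost promoter. The start of the printed Atp2b1 window (98914642) also lies inside its gene (chr10:98914406-99026143), and so does most of that window. In the other windows of Atp2b1, Itpr2, Orai1, Stim1 and Stim2 the count was 22 to 41, and RefSeq promoter windows of Itpr1 and Atp2a2 were not used here. The cAMP response element TGACGTCA was in none of the 9 windows of 8 genes on either strand (1.55% of all windows hold it). Its 5-base core TGACG, on either strand, was in the windows of Orai1 and Stim1, and 17.8% of all windows hold it. These matches describe the sequence and no factor binding was measured.

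The IP3 receptors are the release channels of the endoplasmic reticulum, and Itpr2 was the most abundant of the 3 isoforms in all 10 samples. Itpr1 (chr6:108213096-108551109, GRCm38) was at 14.64 TPM in the parental line, 12.08 and 13.68 in intact clone 1 and 12.14 and 14.01 in intact clone 2. In the KO clones it was at 8.65, 21.81, 14.77, 12.62 and 18.51 TPM in KO 1 to KO 5. KO 1 was thus below and KO 2, KO 3 and KO 5 above the entire intact range, and the groups overlapped. Itpr2 (chr6:146108299-146502223) was at 41.47 TPM in the parental line, 32.47 and 36.11 in intact clone 1 and 40.32 and 41.15 in intact clone 2, against 52.91, 36.76, 37.35, 65.85 and 34.05 in KO 1 to KO 5. For Itpr2 it was KO 1 and KO 4 that lay above the intact range, whereas the other 3 clones lay within it.

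Itpr3 (chr17:27057304-27122223) encodes the type 3 receptor. It was at 20.52 TPM in the parental line, 19.95 and 16.90 in intact clone 1 and 16.03 and 16.53 in intact clone 2. In KO 1 to KO 5 it was at 22.23, 25.17, 19.81, 21.56 and 21.88 TPM. Of the 5 KO clones, 4 were above the highest intact sample, and KO 3 was below the parental line and the first sample of intact clone 1. The means were 17.99 ± 2.09 TPM in intact and 22.1 ± 1.94 TPM in KO samples (SD, n = 5 each). On the log2(TPM + 1) scale the KO mean was higher by 0.29, with a 95% interval of 0.09 to 0.48. Itpr3 did not pass the threshold over all genes (limma p = 0.00747, adjusted p = 0.564), and in a two-sided exact permutation test of Itpr3 alone p was 0.0238, with 0.00794 the smallest that 5 against 5 samples allow. With 1 value per cell line (3 intact lines against 5 KO clones) the log2 difference was 0.26 and the exact permutation p 0.0714, where the smallest possible is 0.0357. An antisense gene, Itpr3os, overlaps 2.58% of the exonic bases of Itpr3 and was at a mean of 0.062 TPM.

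The summed TPM of the 3 receptors was 69.6 ± 4.73 in intact and 82.8 ± 11.03 in KO samples, with ranges of 64.5 to 76.6 and 71.9 to 100.03 that overlapped. Itpr2 contributed 55.0% ± 3.31 in intact and 54.1% ± 9.98 in KO samples, Itpr1 19.1% ± 1.03 and 18.9% ± 7.11, and Itpr3 25.9% ± 3.19 and 27.0% ± 3.36 (SD, n = 5 each). None of the 3 shares differed beyond the spread of the samples in the two-sided exact permutation test (p = 0.865, 0.929 and 0.611). The KO clones were far apart from each other, however. Itpr2 exceeded Itpr1 by 6.12 times in KO 1 and 5.22 times in KO 4, but by 1.69 times in KO 2 and 1.84 times in KO 5, with KO 3 between them at 2.53 times. In the intact samples the same ratio was 2.64 to 3.32. If the clone numbers correspond, KO 1 and KO 2 came from the same guide, as did KO 4 and KO 5, and clones of the same guide then fell at opposite ends of this ratio.

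**Figure D2:**
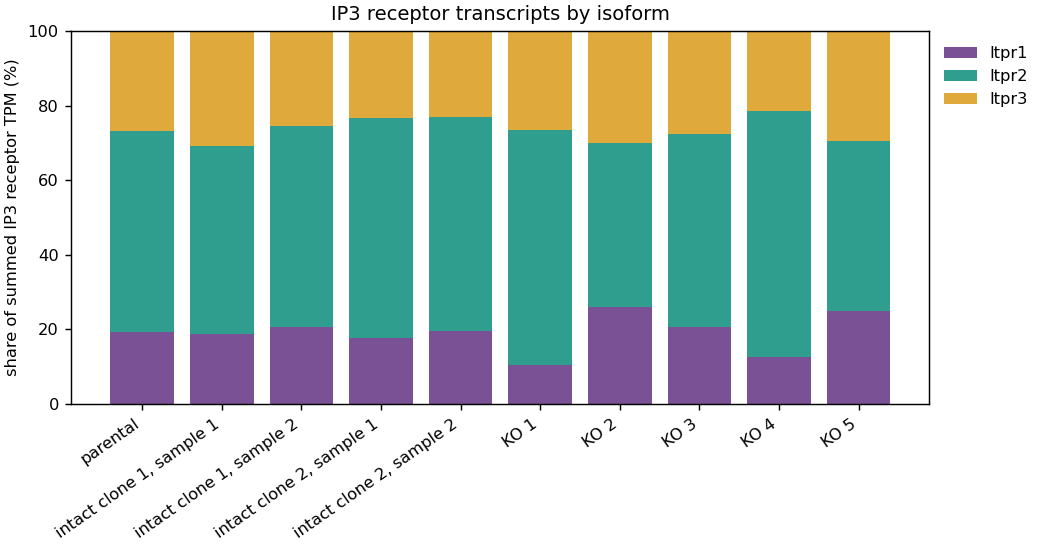
Share of Itpr1, Itpr2 and Itpr3 in their summed TPM (percent) in each of the 10 samples, 1 bar per sample. The share of Itpr1 is 17.7% to 20.5% in intact samples but runs from 10.3% in KO 1 to 26.0% in KO 2.

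The difference between KO clones can be set beside that of other genes. The SD of log2(TPM + 1) over the 5 KO clones was 0.48 for Itpr1, larger than in 96.9% of the 9252 genes with a mean of at least 10 TPM, and 0.40 for Itpr2, larger than in 95.3% of them. In the spread over the KO clones Orai1 stood at 84.6% and the other 6 tested genes between 37.3% and 54.0%. Over the 3 intact lines the SD was 0.10 for Itpr1 and 0.15 for Itpr2. The values of intact clones 1 and 2 are means of paired samples, which can lower an SD. The intact SD is therefore not directly comparable with that of 5 single samples. The genes whose pattern over the 8 cell lines was most like that of Itpr1, among 13046 genes compared, were Abraxas1 (Pearson's r = 0.987), Ruvbl1 (r = 0.978) and Casp9 (r = 0.970). These correlations describe 8 points, 6 of them single samples, and carry no test. Abraxas1 was lowest in KO 1 (29.1 TPM) and highest in KO 2 (43.2 TPM), as Itpr1 was.

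Store-operated entry rests on the sensors Stim1 and Stim2 and the channel Orai1. Stim2 (chr5:53998499-54121057) was at 42.46 TPM in the parental line, 34.82 and 36.73 in intact clone 1, and 43.97 and 41.34 in intact clone 2. In KO 1 to KO 5 it was at 41.30, 51.04, 40.97, 41.44 and 38.87 TPM. KO 2 stood above all other samples, and the remaining KO clones were inside the intact range. Stim1 (chr7:102267806-102437319) was at 9.40, 11.10, 9.14, 9.96 and 10.20 TPM in the intact samples, in the same order, and at 9.73, 11.39, 11.64, 10.10 and 12.65 TPM in KO 1 to KO 5. Its KO values reached higher (log2 ratio 0.14, 95% interval -0.05 to 0.33), but the groups overlapped and the exact permutation p was 0.103. Stim2 made up 79.9% ± 2.41 of the summed STIM transcripts in intact and 79.3% ± 2.59 in KO samples (exact permutation p = 0.722).

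Orai1 (chr5:123015074-123030456) was at 36.96 TPM in the parental line, 34.73 and 31.13 in intact clone 1, 40.93 and 41.91 in intact clone 2, and 38.07, 52.07, 34.13, 33.03 and 41.27 in KO 1 to KO 5. Only KO 2 was above the intact range. The log2 ratio was 0.08 with a 95% interval of -0.19 to 0.36. Of the summed ORAI transcripts Orai1 held 52.5% in intact and 51.8% in KO samples and Orai3, a paralogue, 45.3% and 46.0%, so that Orai2 was left with 2.11% and 2.27%.

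The store pump SERCA2 refills the endoplasmic reticulum. Its gene Atp2a2 (chr5:122453513-122502225) was at 110.03 TPM in the parental line, 96.79 and 90.66 in intact clone 1 and 111.63 and 111.79 in intact clone 2. In KO 1 to KO 5 it was at 117.92, 136.93, 108.42, 110.63 and 110.43 TPM. KO 1 and KO 2 were above every intact sample and the other 3 clones were near intact clone 2 (log2 ratio 0.16, 95% interval -0.01 to 0.34, exact permutation p = 0.143). Atp2a2 provided 99.1% to 99.8% of the summed SERCA transcripts in each sample, and Atp2a1, the form of fast skeletal muscle, no more than 0.799%.

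Atp2b1 (chr10:98914406-99026143) was at 151.43 TPM in the parental line, 101.64 and 121.77 in intact clone 1, 135.65 and 130.10 in intact clone 2, and 146.35, 133.94, 131.92, 148.19 and 122.24 in KO 1 to KO 5. The highest and the lowest samples were both intact, and the KO clones lay between them (log2 ratio 0.10, 95% interval -0.12 to 0.32). Since Atp2b4, Atp2b2 and Atp2b3 were at or near 0, Atp2b1 held at least 99.99% of the PMCA transcripts in every sample. Trpv4 (chr5:114622152-114658421) was at 390.11 TPM in the parental line, 346.88 and 339.31 in intact clone 1, 397.65 and 382.54 in intact clone 2, and 435.60, 398.22, 383.32, 367.42 and 345.71 in KO 1 to KO 5. KO 1 and KO 2 were above the intact range, KO 3 to KO 5 within it, and the interval of the log2 ratio (0.05, 95% interval -0.10 to 0.21) is the narrowest of the 9 genes.

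Between KO and intact samples, 0 of the 9 tested genes passed the threshold in limma with Benjamini-Hochberg adjustment (adjusted p = 0.564 to 0.906), where 1 of 20000 genes did, Camk2d (0.005%). At an unadjusted p under 0.05, 1 of the 9 was higher in KO samples, Itpr3, beside 4.53% of all genes tested and 6.74% of those with a mean of at least 10 TPM, and 0 were lower, beside 2.46%. Over all genes these counts depend on the scaling and on the treatment of cell lines, with 905 higher and 493 lower as deposited, 626 and 661 after median-ratio scaling, 656 and 597 after quantile normalization, 485 and 264 with cell line as a random effect and 424 and 338 with 1 value per line. In either direction the count was 1 of 9 against 6.99% of all genes tested. Atp2b4 was below the abundance limit and was not tested. The mean was higher in KO samples for all 9 genes, with log2 ratios of 0.05 to 0.29 and a median of 0.13, while 57.3% of all genes tested and 62.2% of those with a mean of at least 10 TPM had a higher mean in KO samples and the median over all genes was 0.02. Samples of the 2 groups overlapped for all 9, and 1.64% of the genes tested showed no overlap. On the TPM + 1 scale the limma 95% interval of the ratio was 0.81 to 1.48 for Itpr1. It was 0.88 to 1.49 for Itpr2 and 0.93 to 1.16 for Trpv4. The intervals of all 9 genes count the paired samples of an intact clone as independent. Samples of a line were correlated (consensus correlation 0.603), so the intervals may be too narrow for a statement about genotype. The direction rested in part on KO 2. Without it the log2 ratios of Itpr1 and Orai1 were -0.0093 and -0.017, and 7 of 9 genes were higher in KO samples.

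**Figure D3:**
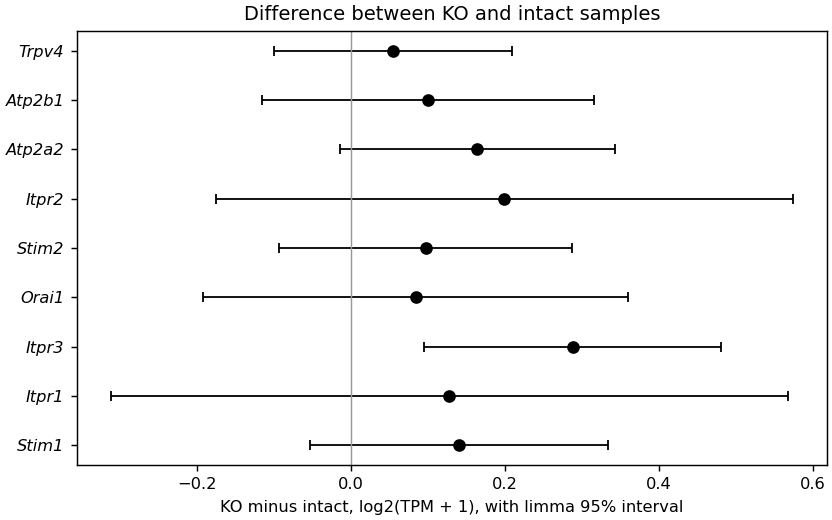
Difference in mean log2(TPM + 1) between 5 KO and 5 intact samples with the limma 95% interval for the 9 tested genes. The interval lies wholly above 0 for Itpr3 (0.09 to 0.48) and includes 0 for the other 8, and no adjusted p is below 0.564.

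Sample KO 2 was the highest of all 10 for 5 of the 9 genes (Itpr1, Itpr3, Orai1, Stim2 and Atp2a2), and 31.3% of the 9252 genes with a mean of at least 10 TPM were likewise highest there, while 19.4% were lowest there, both the largest shares of the 10 samples. At the other end, 7 of the 9 genes were lowest in a sample of intact clone 1, which was the lowest sample for 8.13% and 10.1% of those genes (first and second sample). Median-ratio scaling factors were 0.98 to 1.04, with that of KO 2 the highest. After this scaling all 9 log2 ratios were still above 0, with a median of 0.10 against 0.00 over all genes tested.

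**Figure D4:**
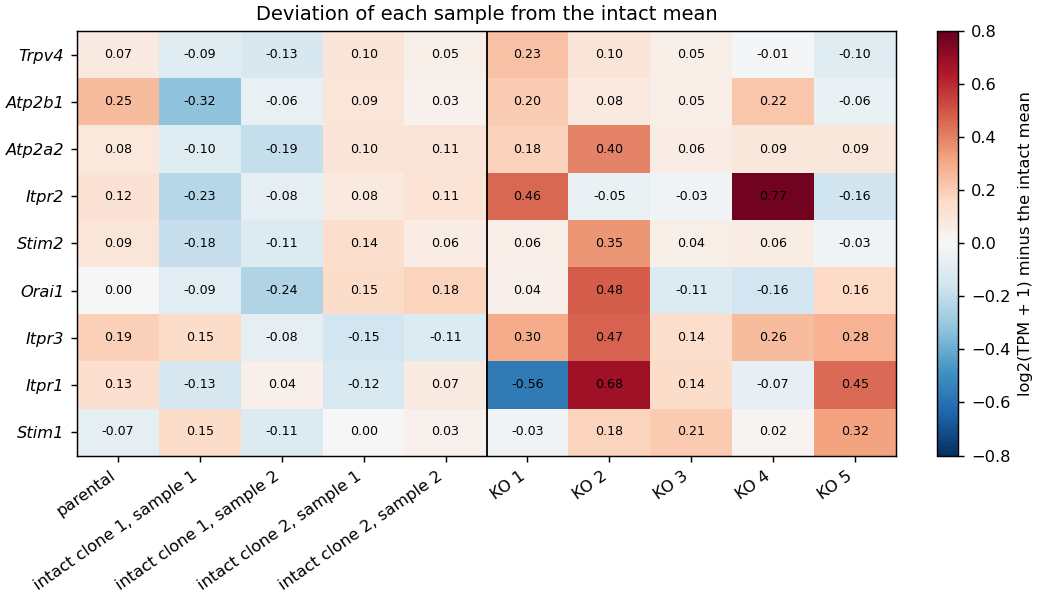
Log2(TPM + 1) of each sample minus the mean of the 5 intact samples for the 9 tested genes, with intact samples left and KO clones right of the line. The extreme values are those of Itpr1 (-0.56 in KO 1, 0.68 in KO 2) and Itpr2 (0.77 in KO 4), and Itpr3 is positive in all 5 KO clones.

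Cell lines of the same genotype were compared as well. In a limma fit with 1 coefficient per line, whose error comes from the paired samples of the intact clones (2 residual degrees of freedom), intact clone 2 exceeded intact clone 1 by log2 ratios of 0.32 for Orai1, 0.25 for Atp2b1, Atp2a2 and Stim2, 0.24 for Itpr2 and 0.18 for Trpv4. Itpr1 and Stim1 differed by 0.02 and 0.00, with wide intervals (-0.33 to 0.37 and -0.36 to 0.36), and Itpr3 by -0.16. None of the 9 passed after adjustment (adjusted p = 0.154 to 1.00), where 0.025% of all genes and 0.0216% of those with a mean of at least 10 TPM did, and 5 had an unadjusted p under 0.05 (Orai1, Atp2a2, Stim2, Itpr2 and Trpv4), where 17.1% of all genes did. The mean log2(TPM + 1) was higher in clone 2 for 8 of the 9, by 0.00 for Stim1, beside 44.2% of all genes. In size, the difference between these clones was above that between KO and intact means for 6 genes (Orai1, Atp2b1, Atp2a2, Stim2, Itpr2 and Trpv4) and below it for Itpr1, Itpr3 and Stim1. The difference between the contrasts was not tested. Over the 8 cell lines, intact and KO together, the limma F test called 0 of 9 genes after adjustment. It called 3.6% of all genes and 2.99% of those with a mean of at least 10 TPM. Differences between genotypes enter this F, so it does not measure lines of the same genotype alone. At an unadjusted p under 0.05 the limma F test picked 6 (Itpr1, Itpr2, Orai1, Stim2, Atp2a2 and Trpv4), beside 28.7% of all genes, with the smallest p for Itpr2 (F = 27.0, limma adjusted p = 0.0884).

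Other genes of calcium handling were counted from lists of 86 genes, of which 61 were abundant enough to be tested. With limma, 0 of the 61 passed after adjustment, 4 were higher and 1 was lower in KO samples at an unadjusted p under 0.05 (4.53% and 2.46% of all genes tested), and 41 had a higher and 20 a lower mean (57.3% of all genes tested had a higher mean), with a median log2 ratio of 0.03. Other release channels of the store and of lysosomes gave a median of 0.19 over 6 tested genes. The lowest limma p was that of Tmbim6, a leak channel of the endoplasmic reticulum (log2 ratio 0.23, limma adjusted p = 0.524). Tmco1, a channel opened by calcium overload of the store, came next (0.18, limma adjusted p = 0.651). Of the 6, 5 had a higher mean in KO samples and 1 a lower mean. The latter was Mcoln1 (-0.13), with 4 of 5 KO clones below every intact sample. The ryanodine receptors Ryr1, Ryr2 and Ryr3, the other channel family of the store, were at or near 0. Among genes of plasma membrane entry (9 tested, median 0.03), P2rx4 had a log2 ratio of 0.16 and Orai3 of 0.12, both with adjusted p above 0.76, and Trpc6, Trpv5 and Trpv6 were at or near 0.

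Regulators of store-operated entry had a median log2 ratio of -0.05 (3 tested), with Cracr2b at 0.05 and Saraf, an inhibitor of this entry, at -0.06. The other pumps and exchangers gave a median of 0.04 over 6 genes, with Slc8a3 at 0.23 and the mitochondrial exchanger Slc8b1 at 0.14. The gene of this list with an unadjusted p under 0.05 was Atp2a1, which was lower in KO samples (log2 ratio -0.32, limma adjusted p = 0.555), at 0.26 to 0.78 TPM in intact and 0.12 to 0.32 TPM in KO samples, groups that overlapped. Of regulators of SERCA and the IP3 receptors, Bcl2 (0.12) was higher in every KO than in every intact sample and Erp44 was at 0.09, while phospholamban (Pln) was listed at 0 in all samples. Among buffers and chaperones of the store, Hsp90b1 (0.10, limma adjusted p = 0.646) showed no overlap of the groups and Pdia3 was at -0.03. Bcl2 and Hsp90b1 were the 2 genes of the 61 whose groups did not overlap, beside 1.64% of all genes tested. In the list for IP3 production, made of phospholipase C and G-protein subunit genes, 7 of 7 tested had higher KO means. This share was 57.3% of all genes tested and 62.2% of those with a mean of at least 10 TPM. Of the 7, 1 had an unadjusted limma p under 0.05, Plcg1 at 0.21 (limma adjusted p = 0.688), and Gnaq was at 0.17. Mitochondrial uptake (Smdt1 at -0.10, Mcub at -0.36) and the calcineurin and NFAT list (Nfatc4 at -0.35, Rcan1 at -0.11) had medians of 0.04 and 0.00.

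**Figure D5:**
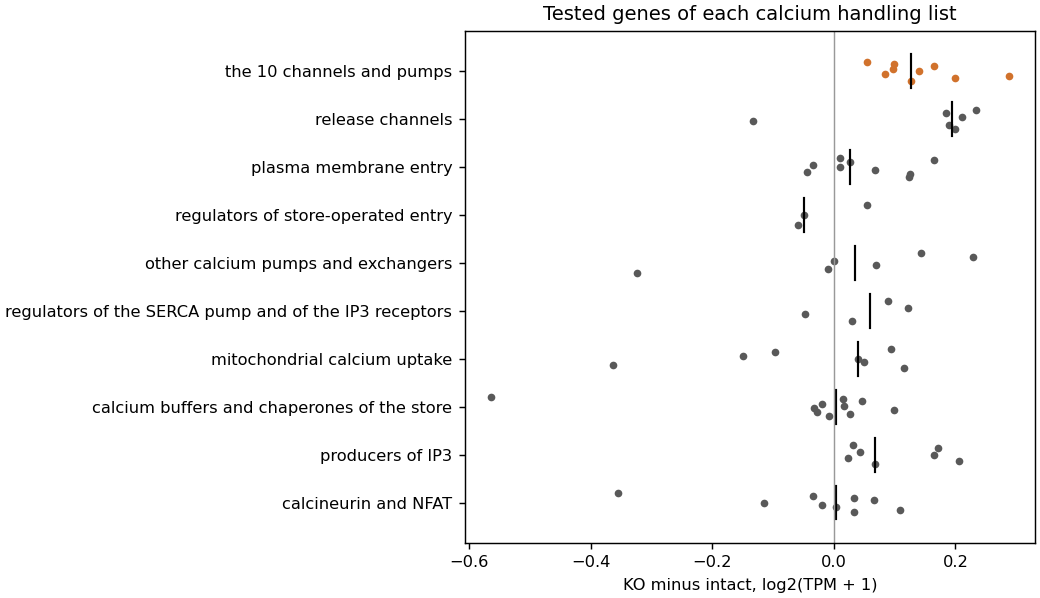
KO minus intact difference in mean log2(TPM + 1) of each tested gene (points) by list, with the list's median as a black bar. The 9 tested channel, pump and sensor genes are in orange. The orange points all lie to the right of 0, from 0.05 to 0.29, and the medians of the other lists lie between -0.05 and 0.19.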

How the data were processed

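RNA-seq was carried out on 10 samples of mpkCCD cells. The authors amplified full-length cDNA, sequenced 50-bp pairs, aligned with STAR and quantified genes with RSEM, and the deposited values are TPM per Ensembl gene with 1 column per sample (0 columns were unused). The study tested expected counts with edgeR, which were not used here, so log2(TPM + 1) with a pseudocount of 1 was tested, and log2 ratios understate changes of genes with low values. The depth of each sample is unknown.

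The 20000 genes with the highest mean TPM (at least 0.049) were compared with limma 3.58.1 in R 4.3.3 (intensity trend, Benjamini-Hochberg adjustment, threshold 0.05). Single genes and isoform shares were compared with two-sided exact permutation tests over 252 arrangements, in Python 3.11.15 (scipy 1.17.1, numpy 2.4.6, pandas 2.3.3, with matplotlib 3.10.9 for plots). The cell-line fit had 1 coefficient for each of 8 lines. On simulated data with 200 of 20000 genes changed, KO against intact recovered 92.5% at a log2 ratio of 1 and 99.0% at 2. The clone contrast recovered 64.0% and 93.0%, and the F test over lines 21.5% and 69.5%. The noise was independent between samples, with no effect shared within a line, and the changed genes were drawn from the more abundant ones. These rates do not give the power for log2 ratios of 0.05 to 0.29, the size seen for the 9 tested genes.

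The genes, the lists and the tests were chosen with earlier results of these data known. The named genes are the 10 channels, pumps and sensors, Camk2d and Aqp2. Also named are up to 2 genes per list with the smallest unadjusted p among those with a mean of at least 1 TPM. Genes absent from the tested set, Ryr1 to Ryr3 among them, the 2 genes without overlap, Atp2a1, Mcoln1 and further marker genes are named for their values. Alternatives were other pseudocounts and abundance filters, scaling by median ratios or quantiles, robust moderation or no trend in limma, averaging each cell line to 1 value, a random effect of cell line (statmod 1.5.0, consensus correlation 0.603), and leaving out each sample. The same-clone samples shared identical values in at most 0.337% of genes and each counted as a sample. Gene positions are from GENCODE M21 (GRCm38) and promoter windows from RefSeq (GRCm38.p6). In the set of windows used here, 8 of the 10 genes had an entry. The authors used a later annotation.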

Additional observations from a re-analysis of the deposited data

Results flagged for a closer look

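In 27 sets of 5 values (each gene or isoform share within a genotype), the extreme sample was compared with its nearest neighbour as a share of the whole range, for which chance alone passes the critical value of 0.71 in about 1 of 20 sets, and 2 sets passed. Stim2 in KO 2 was at 51.04 TPM and the next KO clone at 41.44 TPM, a gap of 0.7888 of the range of the KO clones. Atp2b4 was at 0.01 TPM in the parental sample and listed at 0 in the other 4 intact samples, so its gap is 1.0 of the range. With 4 values at 0 any value above 0 gives this gap, so the flag was fixed by the floor. The rate of 1 of 20 holds for independent sets without ties. The tied values and the isoform shares, which reuse the same values, do not meet this.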

How the results depend on the processing

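Between KO and intact samples, no channel, pump or sensor gene passed the adjusted threshold under any of the 10 other settings or 10 left-out samples. The number of genes called over all genes rose from 1 to 2 with a pseudocount of 0.1 and was 1 to 2 with single samples left out (2 without the parental sample and without KO 2). For Itpr3 the unadjusted limma p stayed under 0.05 in all of these (log2 ratio 0.24 to 0.33, adjusted p 0.443 to 1.00), and the exact permutation test lost its call with 1 value per cell line (0.26, p = 0.0714). Without KO 1, Stim1 passed the exact permutation test (0.18, p = 0.0476). With single samples left out, the log2 ratio ranged from -0.0093 to 0.30 for Itpr1, from -0.017 to 0.14 for Orai1 and from 0.10 to 0.18 for Stim1, the 2 negative values being those without KO 2. It stayed above 0 but fell to 0.055 for Itpr2 without KO 4, 0.010 for Trpv4 without KO 1, 0.020 for Atp2b1 without the first sample of intact clone 1 and 0.032 for Stim2 without KO 2. In percentage points the KO minus intact difference in share ranged from -2.04 to 1.89 for Itpr1, from -3.80 to 1.69 for Itpr2, from 0.352 (without KO 2) to 2.48 (without KO 4) for Itpr3, from -0.338 to 1.64 for Stim1 and from -1.64 to 0.338 for Stim2. Between the intact clones, 5 genes were called over all genes, 1 with a pseudocount of 0.1, 243 among genes with a mean of at least 1 TPM, and 0 without any single sample of the clones, when the F test over lines also fell from 719 to 0 and 1 residual degree of freedom was left. With all samples kept, the F test over lines called 1062 of 20000 genes with a pseudocount of 0.1. Among genes with a mean of at least 1 TPM it called 998 of 13047. The clone difference without single samples ranged from -0.077 to 0.12 for Itpr1 and from -0.13 to 0.13 for Stim1. The causes were not tested. No paired analysis was possible because the numbers of the intact and KO samples name clones and do not pair them. Unknown depth leaves the error of low values, Stim1 and Itpr1 included, unmeasured.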
